A study of Caenorhabditis elegans with 4 samples.

Results

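The genes described are the 10 intracellular genes of the Wnt pathway that code for the Dishevelled proteins (dsh-1, dsh-2, mig-5), the beta-catenins (bar-1, hmp-2, sys-1, wrm-1), the TCF/LEF factor POP-1 (pop-1), Axin (pry-1) and the Nemo-like kinase LIT-1 (lit-1), out of 19985 protein-coding genes of Caenorhabditis elegans. They are grouped by what their products do, and no peak value enters the rule. For each, the summits of EGL-27 peaks were taken from the gene body and the 2 kb upstream of its 5′ end. EGL-27, a protein of the MTA family, whose members form part of the NuRD chromatin complex, was mapped by chromatin immunoprecipitation and sequencing (ChIP-seq) in 4 biological replicates of 1 group. These were whole L3 larvae of mixed sex and unknown age from strain OP177 (unc-119(ed3) III; wgIs177), in which EGL-27 carries GFP and FLAG at its C terminus. There was no second genotype, treatment or stage, so the 10 genes are set beside all protein-coding genes and the replicates beside each other. The protein is a tagged copy from a transgene, and whole animals give no view of which tissue a peak comes from.

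In Wnt signalling, a secreted ligand binds a Frizzled receptor, the receptor acts through Dishevelled, and beta-catenin levels or location then set what TCF does at its target genes. In C. elegans the work of beta-catenin is split between proteins. BAR-1 acts with POP-1 in the canonical branch, SYS-1 is a POP-1 coactivator, WRM-1 acts with LIT-1 to lower nuclear POP-1 in 1 daughter of an asymmetric division, and HMP-2 works mainly at cell adhesions. PRY-1 is part of the complex that destabilises BAR-1. EGL-27 is known for roles in cell polarity and cell migration, and the question here is where its peaks lie at the genes of this pathway.

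The data are lists of peaks. The pooled list, called on all 4 replicate alignments together, held 28056 peaks, and the replicate lists held 30000, 6602, 19304 and 12990 for replicates 1 to 4. These lists hold background as well as peaks, so presence in them is a weak statement and the rank is what carries information. Ranks run from 1 for the highest of the authors' scores. The irreproducible discovery rate (IDR) list of 814 peaks held the strongest 814 pooled peaks, and the strongest 814 of a replicate are called its top peaks here. A pooled summit counted as matched in a replicate when that list had a summit within 200 bp. The pooled list contains the reads of every replicate and all lists share 1 control, so matches are not independent of the pooled peak. The number of reads per library is unknown.

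The sequence under the peak is shown for mig-5, dsh-2, lit-1 and wrm-1, the 4 genes whose best pooled summit ranked highest, with the window taken at that summit. Each run is read 5′ to 3′ on the strand of the gene and holds up to 300 bases around the summit, clipped where an annotated UTR began. Capitals mark matches, on either strand, to a GATA site (AGATAA or AGATAG or TGATAA or TGATAG), a TCF site (CTTTGAT or CTTTGAA), an E-box (CACGTG) or a GAGA repeat (GAGAGAG). The coordinates, on ce11 (WBcel235), are chrII:8185080-8185379 on the minus strand for mig-5, chrII:5081175-5081443 on the minus strand for dsh-2, chrIII:13712977-13713276 on the plus strand for lit-1 and chrIII:5721833-5722132 on the plus strand for wrm-1. The bases are those of the RefSeq assembly.
mig-5: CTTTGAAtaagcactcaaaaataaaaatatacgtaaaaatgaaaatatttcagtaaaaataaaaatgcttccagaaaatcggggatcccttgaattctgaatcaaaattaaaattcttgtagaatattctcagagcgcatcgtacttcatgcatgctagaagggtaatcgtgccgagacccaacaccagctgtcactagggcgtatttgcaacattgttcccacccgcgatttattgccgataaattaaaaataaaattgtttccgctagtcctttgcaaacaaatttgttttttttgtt
dsh-2: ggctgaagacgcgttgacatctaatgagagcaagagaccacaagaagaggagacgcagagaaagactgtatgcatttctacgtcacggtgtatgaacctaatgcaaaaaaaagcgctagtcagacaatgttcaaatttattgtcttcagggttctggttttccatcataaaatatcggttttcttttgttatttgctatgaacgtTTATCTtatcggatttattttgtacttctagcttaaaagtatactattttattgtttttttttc
lit-1: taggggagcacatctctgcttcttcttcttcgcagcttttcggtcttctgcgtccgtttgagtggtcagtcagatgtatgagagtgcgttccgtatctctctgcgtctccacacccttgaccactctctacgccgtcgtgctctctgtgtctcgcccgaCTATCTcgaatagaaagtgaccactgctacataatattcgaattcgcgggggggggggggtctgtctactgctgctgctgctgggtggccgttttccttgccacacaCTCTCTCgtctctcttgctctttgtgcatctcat
wrm-1: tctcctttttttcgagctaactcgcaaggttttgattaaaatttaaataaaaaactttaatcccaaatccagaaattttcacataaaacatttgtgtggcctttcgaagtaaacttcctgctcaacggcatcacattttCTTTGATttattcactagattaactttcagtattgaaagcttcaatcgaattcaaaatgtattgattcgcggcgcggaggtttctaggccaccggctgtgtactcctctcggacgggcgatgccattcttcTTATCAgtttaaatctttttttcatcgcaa

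Of the 10 genes, 2 had a summit of the IDR list in the window, both of them Dishevelled genes: mig-5 at rank 574 and dsh-2 at rank 725. The share of all protein-coding genes with an IDR summit in a window built the same way was 4.5%, and among the 7162 genes whose windows were as long as those of the 10 it was 6.23%. With 10 genes, 2 is a small count, and both peaks lay in the weaker part of the IDR list. Next in strength came lit-1 at pooled rank 819, 5 ranks below the end of the IDR list, with an authors' score of 24.17 beside 24.23 for the weakest IDR peak. Then followed wrm-1 at rank 1561, pry-1 at rank 1827 and hmp-2 at rank 2820. The strongest summits of pop-1, dsh-1 and sys-1 ranked 9074, 9748 and 13203, and bar-1 had no pooled summit in its window.

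The pooled list thus had a summit in the windows of 9 of the 10 genes, against 67% of all protein-coding genes. Among the 5000 strongest pooled peaks, 6 of the 10 genes had a summit, against 20.7% of all genes and 28.6% of those with windows in the same range of lengths. The same count, 6, was reached at a deposited q-value of 0.05 or less, against 20.4%. The median best rank was 1827 over the 9 genes with a pooled summit and 9232 over the 13383 protein-coding genes with one. The windows of the 10 genes were longer, with a median of 6676.5 bp against 4026 bp, and genes with windows of 6 to 8 kb had a median best rank of 8316. The windows held 35 pooled summits, 0.384 per kb, of which 17 were in lit-1. Without lit-1 the other 9 windows held 18, or 0.27 per kb, beside 0.28 per kb over the whole genome. The median gene of the 10 had 0.266 summits per kb and the median protein-coding gene 0.251. Outside lit-1 the windows therefore held about as many summits per kb as the genome does.

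**Figure D1:**
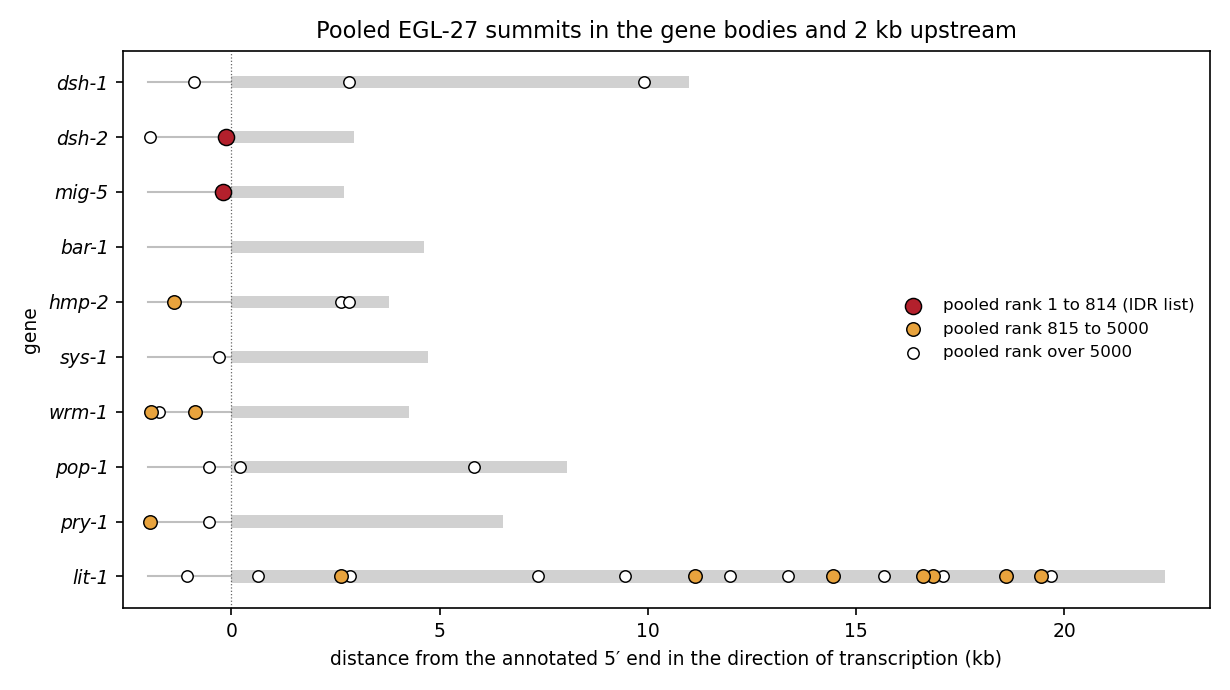
Position of each pooled summit (circles) relative to the annotated 5′ end, in kb along the direction of transcription; grey bars are gene bodies and thin lines the 2 kb upstream. The 2 IDR summits (red) sit just upstream of dsh-2 and mig-5, lit-1 carries 17 summits, 16 of them along its body, and bar-1 carries 0.

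Summits lay upstream of the 5′ end in 13 of 35 cases, in introns in 19, in coding exons in 2 and in a UTR in 1. Without lit-1, which alone had 16 of the intronic ones, 12 of 18 were upstream. Places were not counted over all pooled summits, so these counts have no share beside them. Whether the split differs from that at other genes was not tested. A pooled summit lay in the 2 kb upstream of 9 of the 10 genes (90%), against 48% of all protein-coding genes. In the narrower promoter window, from 1 kb upstream to 200 bp downstream, 7 had a pooled summit, against 37.5%, and 2 an IDR summit, against 2.6%. Many C. elegans messages are trans-spliced to a leader RNA, so an annotated 5′ end may lie downstream of where transcription starts.

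The Dishevelled genes, whose proteins relay the signal from Frizzled into the cell, did not share 1 pattern. The gene mig-5 (WBGene00003241; II, 8182323 to 8185023, minus strand) had a single pooled summit, at 8185230, 207 bp upstream of its 5′ end. In that window the best rank was 531 in replicate 1, 815 in replicate 3 and 555 in replicate 4, and replicate 2 had no summit. The peak was a top peak in replicates 1 and 4, where its summits were 4 and 46 bp from the pooled one. The replicate 3 summit missed the top class by 1 rank and lay 294 bp from the pooled summit, in an intron 87 bp inside the gene, so it did not count as a match. No other of the 10 genes had a pooled summit that was a top peak in 2 replicates.

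The mig-5 peak cannot be given to mig-5 alone. The gene cct-1, which codes for a subunit of the CCT chaperonin that folds actin and tubulin, starts on the other strand 420 bp away, and the summit was 213 bp from its 5′ end. It was the only 1 of the 10 genes with a divergent protein-coding neighbour starting within 2 kb. The printed window lies wholly between both 5′ ends, and its 1 TCF match is the first 7 bases, 146 bp from the summit. In the printed dsh-2 window the 1 GATA match lies 58.5 bp from the summit, and in that of lit-1 the GATA match lies 11.5 bp from it.

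The gene dsh-2 (WBGene00001102; II, 5078233 to 5081174, minus strand) had its IDR summit at 5081294, 120 bp upstream of the 5′ end, and the next protein-coding 5′ end, that of C04G6.4, was 2147 bp off. Its best ranks were 1047 in replicate 1, 1672 in replicate 2 and 1223 in replicate 4, and replicate 3 had no summit in the window. The summit was matched in replicates 1 and 4, at 109 and 15 bp, while the replicate 2 summit lay 224 bp away, 104 bp inside the gene in a coding exon. The IDR summit was a top peak in 0 replicates, so it went with moderate ranks in the 2 libraries that matched it. A second pooled summit, rank 13253, was nearer to C04G6.4 and was matched in replicate 1 only.

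The remaining Dishevelled gene, dsh-1 (WBGene00001101; II, 5214400 to 5225384, minus strand), had 3 pooled summits, at ranks 9748, 12777 and 15516. The first lay in the 3′ UTR 9.92 kb from the 5′ end, nearer to the 5′ end of C34F11.1 (2488 bp), and was matched in no replicate. The second lay 905 bp upstream and was matched in replicate 3 alone, and the last, in an intron, was matched in replicates 1 and 4. Best ranks in the window were 11507 in replicate 1, 5954 in replicate 3 and 2542 in replicate 4, each at a different place, and replicate 2 had none. In these lists dsh-1 thus had nothing like the promoter peaks of dsh-2 and mig-5, a difference for which the lists allow no test.

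**Figure D2:**
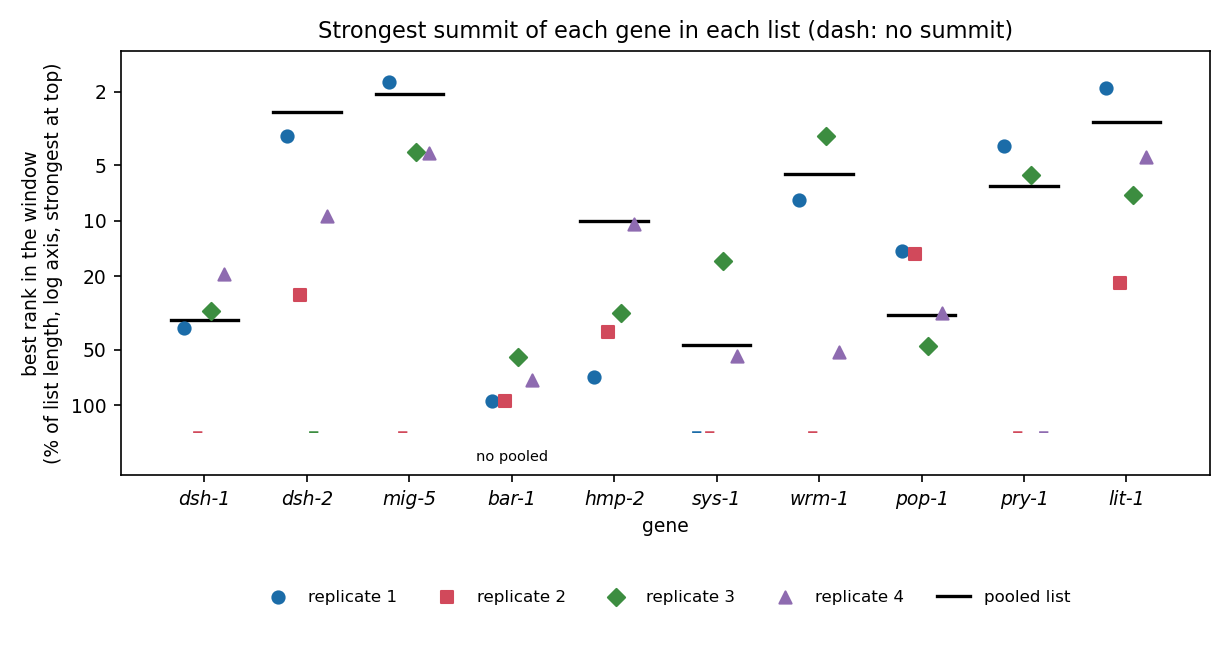
Rank of the strongest summit in each gene's window, as a percent of list length on a log axis with the strongest at the top, for the 4 replicate lists (symbols) and the pooled list (black line); a dash marks a list with no summit. The replicate 1, 3 and 4 values of mig-5 lie within the first 5% of their lists, while those of bar-1 all lie beyond 50%.

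Among the beta-catenins, wrm-1 had the strongest peak. The gene (WBGene00006943; III, 5722850 to 5727115, plus strand) had 3 pooled summits, all upstream and all nearest to its own 5′ end: rank 1561 at 867 bp, rank 3128 at 1936 bp and rank 8686 at 1731 bp. The first was matched at rank 11791 in replicate 1, rank 671 in replicate 3 and rank 6714 in replicate 4. It was thus a top peak in replicate 3 and a weak one in the other 2. The second was matched at rank 2316 in replicate 1 and rank 11318 in replicate 3. The summits of ranks 3128 and 8686 shared that match in replicate 3. The printed window of the first summit holds a TCF match centred 8 bp from the summit and a GATA match 122.5 bp from it.

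The adhesion beta-catenin gene hmp-2 (WBGene00001979; I, 14738882 to 14742671, plus strand) had its strongest pooled summit, rank 2820, 1372 bp upstream. It lay 192 bp from the 5′ end of K05C4.7, a gene on the same strand, and so was nearer to that gene. It was matched at rank 2665 in replicate 2 and rank 6150 in replicate 3. The other summits, at ranks 5253 and 7096, lay in coding exons 2.62 and 2.83 kb into the gene and had the same match in replicate 1, at rank 21182. Both were nearer to the 5′ end of K05C4.5, which was 1258 and 1058 bp away. In replicate 4 the first of these was at rank 1363. Which summit was strongest thus differed between libraries.

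The POP-1 coactivator gene sys-1 (WBGene00006379; I, 9980063 to 9984794, minus strand) had 1 pooled summit, rank 13203, 306 bp upstream of its 5′ end. It was matched at rank 3210 in replicate 3 and rank 6996 in replicate 4, and replicates 1 and 2 had no summit anywhere in the window. The deposited −log10 q-value of this pooled peak was 0.307, where 1.30 stands for a q-value of 0.05.

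The canonical beta-catenin gene bar-1 (WBGene00000238; X, 7166005 to 7170625, minus strand) was the only 1 of the 10 genes with no pooled summit. Each replicate list had at least 1 in the window, at best ranks of 28527, 6237, 10636 and 9470 in replicates 1 to 4. These are 95.1%, 94.5%, 55.1% and 72.9% of the way down the lists. The replicate 4 summit of rank 9470 lay in a UTR, 4575 bp into the gene. The upstream summits of replicates 3 and 4, at ranks 10636 and 10466, were 337 and 270 bp from the 5′ end. Both lay inside the non-coding genes F43E12.4 and F43E12.5. The summits of replicates 1 and 2 lay in coding exons.

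The gene for the TCF/LEF factor itself, pop-1 (WBGene00004077; I, 2822243 to 2830311, minus strand), had 3 pooled summits, each matched in 1 replicate only. The strongest, rank 9074, lay in an intron 213 bp from the 5′ end and was matched at rank 4362 in replicate 1. The others, at ranks 13057 and 20827, lay 534 bp upstream and 5.82 kb into the gene. Best ranks in the window were 4362, 997, 9244 and 4110 in replicates 1 to 4. The replicate 2 summit of rank 997 lay 1.83 kb upstream with the nearest pooled summit 1301 bp away. All 4 replicates thus had summits at pop-1, but their strongest ones were at 4 different places. In replicate 1 the summit of rank 4362 lay in a coding exon, within 200 bp of the non-coding gene W10C8.14. A further replicate 1 summit, at rank 11611, was within 200 bp of the intronic snoRNA gene W10C8.17.

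The Axin gene pry-1 (WBGene00004202; I, 14172828 to 14179360, minus strand) had a pooled summit at rank 1827, 1955 bp upstream and thus close to the edge of the window. It was matched at rank 1187 in replicate 1 and rank 1095 in replicate 3, with summits 27 and 29 bp away. Replicates 2 and 4 had no summit in the window. No other protein-coding 5′ end was nearer, the next being 4392 bp away. A second summit, rank 20895 at 551 bp upstream, was matched in replicate 3 alone.

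The kinase gene lit-1 (WBGene00003048; III, 13701991 to 13724404, plus strand) is the longest of the 10, with a body of 22.4 kb and 7 annotated transcript starts. Its window held 17 pooled summits, 0.696 per kb, and 25 protein-coding genes had more. In the replicates the window held 16, 3, 12 and 9 summits, with best ranks of 575, 1436, 1401 and 590. The top peaks of replicates 1 and 4 were at different places: that of replicate 1 was 11.1 kb into the gene, at the pooled summit of rank 819 (13713127), and that of replicate 4 was 2.6 kb into it, at the pooled summit of rank 2559. The rank 819 summit was matched at rank 575 in replicate 1 and rank 15567 in replicate 3, and it lay 918 bp from the nearest annotated transcript start.

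Among the 17 lit-1 summits, 7 were in the 5000 strongest pooled peaks and 11 were matched in 2 or more replicates. Over all pooled summits the shares were 17.8% and 31.6%. Neighbouring lit-1 summits can share a match: the replicate 1 summit of rank 5191 served those of ranks 2642 and 16627, and that of rank 6406 served those of ranks 1558 and 19925. The rank 19925 summit also had a nearer replicate 1 summit, of rank 21565, at 31 bp. A stretch from 15.7 to 19.7 kb into the gene, singled out after its values were seen, held 7 of them, 4 in the 5000 strongest. They include the summits of ranks 1558, 2388 and 2642, each matched in 3 replicates. The rank 2388 summit was matched at rank 2482 in replicate 2, 1401 in replicate 3 and 9521 in replicate 4, and the rank 2642 summit at rank 865 in replicate 4. The summits of ranks 1558 and 19925 lay within 200 bp of the non-coding gene W06F12.7. Of the 17 summits, 6 were within 500 bp of an annotated transcript start of lit-1. The strongest of them, rank 2642, was 477 bp from one. The count of 6 has no share of all pooled summits beside it, and lit-1 has several annotated starts in this stretch.

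**Figure D3:**
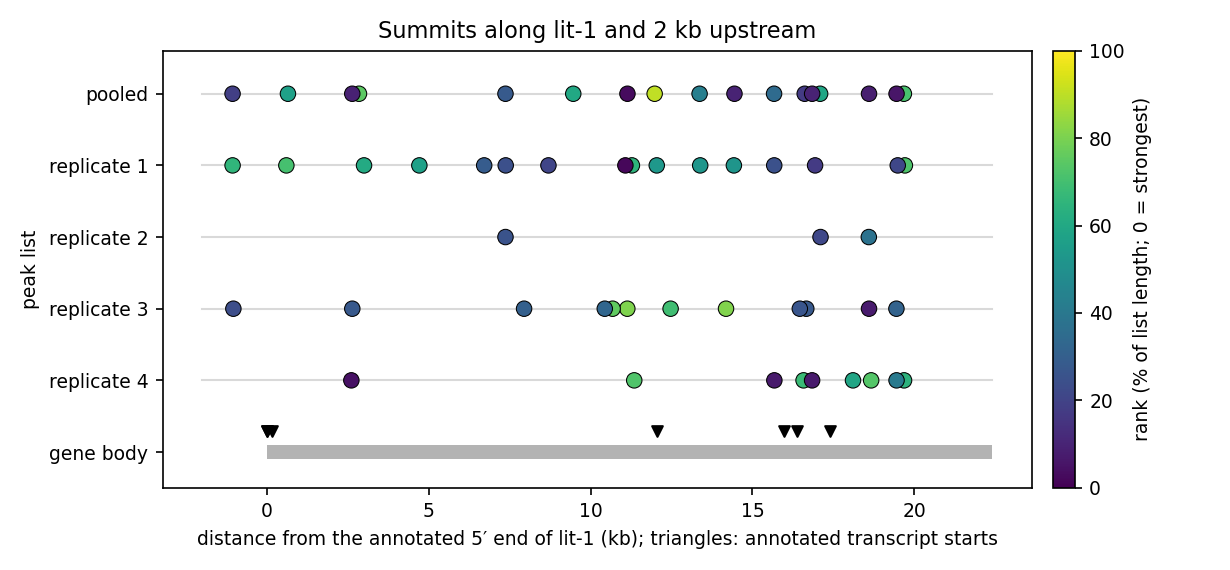
Summits of the pooled and the 4 replicate lists along lit-1, by distance from its 5′ end in kb and coloured by rank as a percent of list length (dark is strong); triangles are annotated transcript starts. Replicate 2 has 3 summits, and the darkest points of replicates 1 and 4 stand at different positions.

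Over all 35 pooled summits of the 10 genes, 0 were matched in all 4 replicates, 5 in 3, 17 in 2, 11 in 1 and 2 in none. The shares were 0%, 14.3%, 48.6%, 31.4% and 5.71%, beside 1.9%, 6.91%, 22.8%, 50.2% and 18.2% of the whole pooled list. So 0 of the 10 genes had a pooled summit matched in all replicates, against 2.82% of all protein-coding genes. Replicate 2, with the shortest list, was the usual gap: 4 of the 35 summits were matched there (11.4%), beside 11.5% of all pooled summits. In replicate 1, 25 were matched (71.4%, beside 56.1%), in replicate 3, 17 (48.6%, beside 33.3%) and in replicate 4, 14 (40%, beside 23.2%). Without replicate 2, hmp-2, wrm-1 and lit-1 each had a summit matched in the other 3, against 8.26% of all genes. The 35 summits had a median rank of 8686, beside 14028.5 in the whole list. At a deposited q-value of 0.05 or less, 11 of the 12 summits in these windows were matched in 2 or more replicates (91.7%), beside 81.4% of all such pooled summits.

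**Figure D4:**
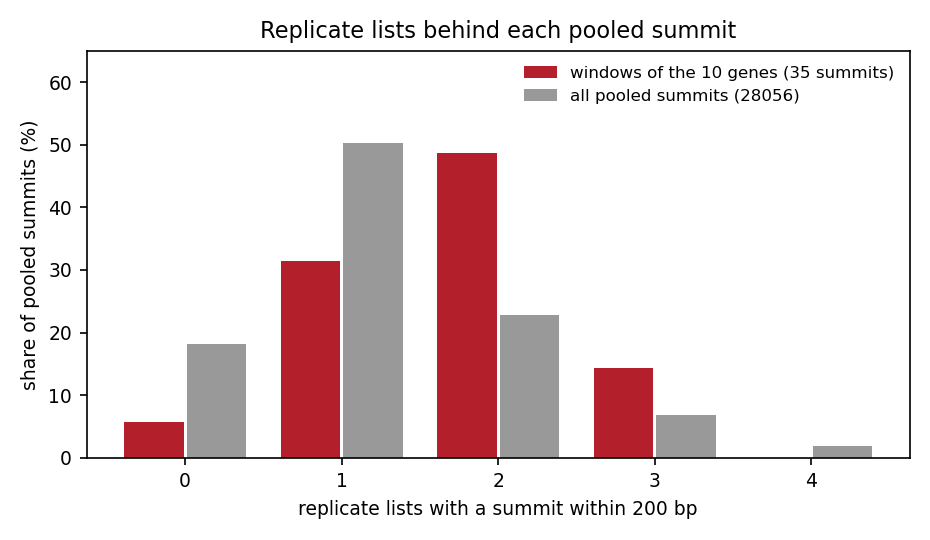
Share of pooled summits, in percent, by the number of replicate lists with a summit within 200 bp, for the 35 summits in the windows of the 10 genes (red) and for all 28056 pooled summits (grey). Matches in 2 lists make up 48.6% of the red bars and 22.8% of the grey ones, and the red bar for 4 lists is 0.

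By replicate, 9, 5, 9 and 9 of the 10 genes had a summit in the window in replicates 1 to 4, a mean of 8 ± 2 (SD, n = 4), against 70.4%, 26.8%, 56.3% and 43.4% of all protein-coding genes. Top peaks were found at 2, 0, 1 and 2 of them, a mean of 1.25 ± 0.957 (SD, n = 4), against 4.15%, 3.89%, 4.03% and 4.13% of all genes. The genes with a top peak were mig-5 and lit-1 in replicates 1 and 4 and wrm-1 in replicate 3, so 3 of 10 had one in any replicate, against 10.4%. A summit of every replicate list, wherever it lay in the window, was found at bar-1, hmp-2, pop-1 and lit-1, so at 4 of 10, against 12.7%. At none of the 4 was a pooled summit matched in every list.

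The strongest pooled summit of each of the 9 genes that had one was taken with 300 bases around it. Of these 9 windows, 4 held a GATA site, 3 a TCF site, 2 an E-box and 3 a GAGA repeat. Among the 28056 windows of the same length at all pooled summits the shares were 49.9%, 14.8%, 6.63% and 9.32%. Within 100 bases around the same summits the counts were 2, 2, 2 and 1, beside shares of 21.3%, 4.82%, 2.47% and 3.86%. TCF matches were at mig-5, wrm-1 and pry-1, E-boxes at sys-1 and pry-1, and GAGA repeats at sys-1, pry-1 and lit-1. The lit-1 window had 53.7% GC and that of pry-1 49.3%, beside a median of 37.3% over all pooled windows. The windows at hmp-2 and dsh-1 held none of the 4 motifs. A match shows only that these letters are present.

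The remaining pathway was followed through 34 further genes in 8 roles, with windows of up to 60.9 kb (hmr-1). A pooled summit lay in the windows of 33 of them (97.1%, against 67% of all genes). An IDR summit lay in those of 2 (5.88%, against 4.5%). The stronger was at mom-1, which codes for the porcupine-type enzyme needed for Wnt secretion: rank 84, 3381 bp into the gene, a summit matched in all 4 replicates with a top peak in the window in each. The other was at jac-1, the p120 catenin of the cadherin complex to which HMP-2 belongs, at rank 564 and 2542 bp into the gene. In the other 6 roles no gene had an IDR summit. The 5 ligand genes had no pooled summit above rank 6060 (egl-20), and lin-44 had none. The strongest among the 6 receptor genes was at cam-1, a Ror-type receptor, at rank 2102, nearer to the 5′ end of C01G6.9 (5424 bp). Among the 4 other destruction complex genes it was at kin-19, a casein kinase gene, at rank 2263. Among the 3 planar polarity genes it was at vang-1, at rank 4299, nearer to the 5′ end of B0410.3 (1303 against 4330 bp). The kinase branch genes mom-4 and tap-1, which act upstream of lit-1 in the same branch, had best pooled ranks of 18190 and 13007. No comparison with lit-1 is made from these, since longer windows reach better ranks: the median best rank was 11015 for windows up to 4 kb and 4046 for those over 24 kb. The mom-4 window held a top peak in 1 replicate, and its best pooled summit lay 45 bp from the 5′ end of col-64. The tap-1 window had 0.715 pooled summits per kb, beside 0.696 at lit-1. Among the 8 target genes the strongest was at psa-3, a homeobox gene that POP-1 and SYS-1 act on, at rank 1057, 953 bp into the gene and matched in 3 replicates.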

How the data were processed

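EGL-27 ChIP-seq peak lists on ce11 from 4 replicates of 1 group were used. The deposited README texts state that every replicate was called by the authors against 1 common control alignment, that the pooled list came from the 4 alignments combined, and that the IDR list was derived from those lists. Aligner, caller and thresholds were not given in the sources used here. Scores given to peaks by the authors have no stated scale and served only to rank peaks within a list, ties taking the best rank. The deposited −log10 q-value is capped in the pooled list at 2.22, which 2420 peaks share. Summits are column 2 plus column 10, given 1-based. Gene models are from Ensembl release 115 (WBcel235, the same assembly as ce11; no peak passed a chromosome end), and the longest extent of each gene was used. Windows, matches within 200 bp, ranks and motifs (in 300 bases, or 100 as an alternative) were computed in Python 3.11.15 with numpy 2.4.6 and pandas 2.3.3, and window counting was checked on planted summits. No test was run: genes are not replicates. Counts are given beside the same count over 19985 protein-coding genes where that was made. The genes, lists and rules were chosen with earlier results of these data known. All 10 genes are described; of the 34 other pathway genes, those with an IDR summit are named, and any others were named after their values were seen. Lists on ce10 were not used, since the gene models are on ce11. Depth is unknown, so no interval is given.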

Additional observations from a re-analysis of the deposited data

Results flagged for a closer look

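Among 18 sets of 4 replicate values that were screened for 1 value far from the others, 2 stood out. Chance alone marks about 1 set in 20 where values are not tied. Of the 10 genes, 5 had a summit in replicate 2, against 9 in each of the other replicates. Replicate 2 also had the shortest list, of 6602 peaks, and its part in the result was not tested. The bar-1 window held 2 summits in replicate 4, against 1 in each other replicate. In both sets the counts were small and all values but 1 were tied. Any difference, even of 1 gene or 1 summit, is then enough to be marked.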

How the results depend on the processing

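Windows with 1 kb or 5 kb upstream, promoter windows alone (1 kb upstream to 200 bp downstream) and summits given to the nearest 5′ end only kept the IDR count at 2 or 3. The third gene, with 5 kb, was sys-1, through a peak of rank 529 that lay 147 bp from the histone gene his-68. With the strongest 50% of the IDR peaks the count was 0. Genes with a pooled summit matched in all replicates numbered 1 with 5 kb upstream and 1 with matches within 500 bp (lit-1), and 0 to 3 when 1 replicate was left out, the highest without replicate 2. Genes with a top peak numbered 0 among the top 400 and 7 among the top 2000 of each replicate, and 2 to 3 with 1 replicate left out. For top peaks the share of all genes was counted at the top 814 only (10.4%), so these counts have no share beside them. Longer lists of top peaks can only raise that share. In promoter windows alone the median best rank was 12777 over 7 genes, since the strongest summits of hmp-2, pry-1, lit-1, dsh-1 and pop-1 fell outside, and the median density was 0.833 per kb, in windows too short to hold more than a few summits. Genes with a pooled summit numbered 6 among peaks at a deposited q-value of 0.05 or less, an alternative chosen after seeing the data. Replicates could not be left out of the pooled and IDR lists, which were deposited as such. Read depth is unknown and limits every statement on weak or missing peaks.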

Other observations

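Some summits near these genes lay just outside the windows. The nearest pooled summits to bar-1 were 54 and 254 bp past its 3′ end, at ranks 18028 and 18851. The pooled summit nearest to its 5′ end among those upstream, at rank 25856, was 1378 bp beyond the 2 kb limit. The 5000 strongest pooled peaks reached bar-1 no closer than rank 2377, which lay 4462 bp beyond that limit.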
